A study of Rattus norvegicus with 119 samples.

Results

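The genes of collagen fibres, of the matrix around them and of the fibroblasts that make them were followed in scraped bladder urothelium of rats given pioglitazone or rosiglitazone. The group was a list of 42 named genes: 6 fibrillar collagens, 9 basement membrane and other collagens, 5 small leucine-rich proteoglycans, 12 glycoproteins and elastic fibre proteins, 2 crosslinking enzymes, 5 proteases and inhibitors and 3 fibroblast surface markers. Each gene was read through the probe that carried its symbol on the array, taking the probe with the highest mean where a gene had several. All 42 were on the platform among 16951 named genes, and all 42 passed the filter on dim genes, which kept 12713 genes for testing. Sprague-Dawley rats of both sexes received 1 oral dose a day for 3, 28 or 90 days, and the bladder lining was scraped off with a scalpel 1 day after the last dose. The vehicle arm received 0.5% methylcellulose. Low-dose and high-dose pioglitazone arms received pioglitazone hydrochloride at 16 and 63 mg/kg/day, and the rosiglitazone arm received rosiglitazone maleate at 10 mg/kg/day. Ages are not given in the sources used here. Arms, sexes and days formed 24 groups of 4 or 5 arrays labelled as replicates, with 30, 28, 28 and 30 arrays in the 4 arms. Animals of different days differed in dosing time and may have differed in age and in handling, which cannot be told apart.

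The bladder lining, the urothelium, rests on a basement membrane, and under it lies the lamina propria, a layer of connective tissue whose fibroblasts secrete collagens I, III, V and VI, elastin, fibronectin and proteoglycans such as decorin. Procollagen chains are folded, trimmed and assembled into fibrils outside the cell, and lysyl oxidases then crosslink collagen and elastin. A scalpel can take lamina propria along with epithelium, so the mean log2 signal of these genes is described here as the lamina propria content of a scraping. In such bulk samples, fewer stromal cells and less of these RNAs per cell cannot be told apart. Pioglitazone and rosiglitazone are thiazolidinediones, which activate the nuclear receptor PPAR-gamma.

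Promoter windows of 3 collagen genes are shown because these genes followed the rest of the group most closely among the 27 members with a window in the RefSeq table, of 42 looked up (build GRCr8). Each window runs 5′ to 3′ from 250 bases before to 50 bases after the annotated start, and capitals mark matches, on either strand, to the TATA box letters TATAAA, to the letters CCAAT or to the GC box letters GGGCGG.
Col5a2 promoter, chr9:55090102-55090401, strand -: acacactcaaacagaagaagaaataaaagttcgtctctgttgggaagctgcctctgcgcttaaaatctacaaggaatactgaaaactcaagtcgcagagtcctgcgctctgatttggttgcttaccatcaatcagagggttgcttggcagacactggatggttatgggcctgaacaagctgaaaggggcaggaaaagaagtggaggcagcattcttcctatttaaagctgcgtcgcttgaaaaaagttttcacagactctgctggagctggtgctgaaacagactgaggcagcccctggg
Col1a2 promoter, chr4:33518307-33518606, strand +: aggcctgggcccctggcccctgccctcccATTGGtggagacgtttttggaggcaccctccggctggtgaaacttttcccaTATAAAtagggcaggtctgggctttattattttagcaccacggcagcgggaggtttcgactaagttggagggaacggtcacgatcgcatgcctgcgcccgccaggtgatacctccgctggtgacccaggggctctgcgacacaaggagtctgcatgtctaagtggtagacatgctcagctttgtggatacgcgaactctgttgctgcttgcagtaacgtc
Col5a1 promoter, chr3:31606630-31606929, strand +: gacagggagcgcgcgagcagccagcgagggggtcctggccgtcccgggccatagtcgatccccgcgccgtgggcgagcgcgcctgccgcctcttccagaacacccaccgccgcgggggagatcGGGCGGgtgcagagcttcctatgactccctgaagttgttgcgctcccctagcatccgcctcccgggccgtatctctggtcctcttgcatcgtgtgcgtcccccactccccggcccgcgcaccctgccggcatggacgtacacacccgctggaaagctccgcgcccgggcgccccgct
Col5a2 and Col5a1 encode chains of collagen V, which sets fibril diameter, and Col1a2 encodes a chain of collagen I. The Col1a2 window held TATAAA and, on the reverse strand, CCAAT. The Col5a1 window held GGGCGG, and the Col5a2 window held no match to the 3 motifs. No motif overlapped another in these windows. Over the 27 members with a window, TATAAA was found in 5 (18.5%, against 14.2% of all 33465 windows), CCAAT in 11 (40.7% against 37.5%) and GGGCGG in 12 (44.4% against 33.1%). These are matches of letters and were not tested.

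Among the 116 arrays used, the median log2 signal lay between 6.40 and 6.63, and the median correlation between arrays was 0.980. A pair of arrays stood apart, high-dose pioglitazone female day 3 replicate 3 at 0.798 and low-dose pioglitazone female day 28 replicate 5 at 0.854. Urothelial markers were high on every array: the mean log2 signal of 15 of them, led by Upk3a, Krt18 and Upk1b, ranged from 13.21 to 15.05. Smooth muscle markers (11 genes, led by Actg2, Tpm2 and Mylk) ranged from 7.17 to 16.11.

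The 42 genes rose and fell together from scraping to scraping. The matrix score, the mean log2 signal of these genes on an array, ran from 6.91 in a high-dose pioglitazone male at day 28 to 12.22 in a vehicle male at day 3, a range of 5.31 log2 units or 39.7-fold, with a median of 8.62. Arrays of the same sex, arm and day differed with an SD of 1.04 log2 units, or 2.05-fold. Of the variance of the score, 61.3% lay within the 24 groups and 38.7% between them. Differences between the 3 days held 26.7% of the variance. The median within-group SD of single members was 1.16 log2 units, against 0.40 over all tested genes.

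**Figure D1:**
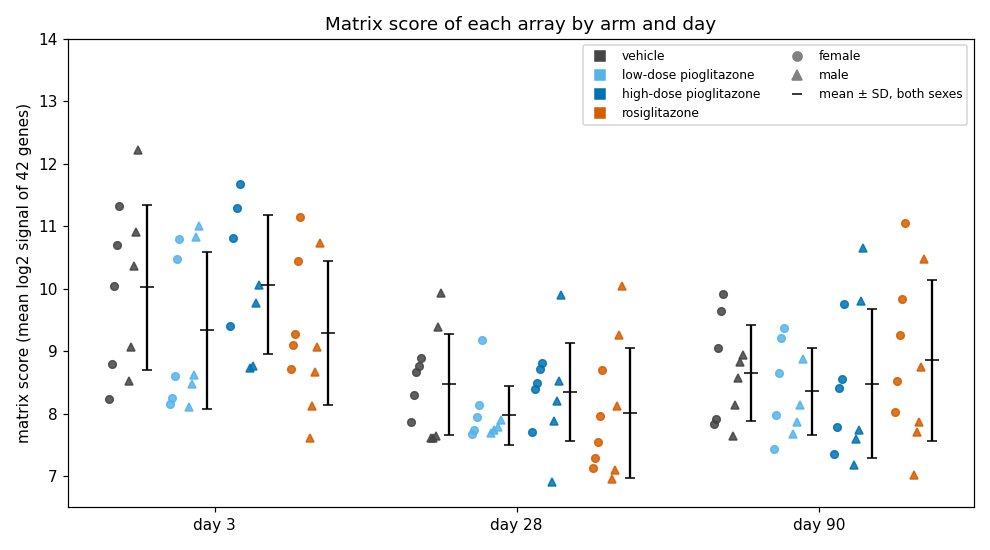
Matrix score (mean log2 signal of the 42 genes) of each of the 116 arrays, by day and arm, with circles for females, triangles for males and bars for the mean and SD of an arm. The scores of treated and vehicle arrays overlap at every day, and the highest score, 12.22, is a vehicle male of day 3.

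Fibrillar collagens had the highest within-group correlations with the other members of the 7 roles (median 0.96), and the other collagens (median 0.86) lay below the proteoglycans (0.90). Each member's within-group deviations were set against the mean deviation of the other members over the 116 arrays, which share their scraping and normalisation, so the correlations are descriptions. The median correlation was 0.88, with 18 members at 0.9 or above and 35 at 0.7 or above. Col5a2 (0.97) and Col3a1 (0.97), the chain of collagen III that forms fine fibrils with collagen I, followed the others most closely. Outside the collagens, Sparc (osteonectin, a collagen-binding glycoprotein) reached 0.96, Bgn (the proteoglycan biglycan) 0.95 and Serpinf1 (a secreted serpin) 0.94. The 4 members under 0.5 were Col18a1 (0.49, a basement membrane collagen), Tnc (tenascin C, 0.46), Timp3 (a matrix-bound protease inhibitor, 0.45) and Thy1 (a surface glycoprotein of fibroblasts and other cells, -0.07). Thy1 also had the narrowest range of log2 signal of the 42 genes, 4.55 to 6.44. Its mean of 5.40 was the lowest of them, near the filter threshold of 5.26. Eln, which encodes elastin, ranged from 4.55 to 16.36 and Fmod (fibromodulin) from 6.54 to 17.73.

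Genes outside the list shared the pattern. The 10 non-members with the highest within-group correlation to the matrix score over 116 arrays were Emp3 (0.98), C1qtnf2, Cav1, Fxyd1, Pmp22, Lhfpl6, C1qtnf6, Pcolce (which enhances procollagen trimming), Prelp (a proteoglycan) and Serpinh1 (the collagen chaperone, 0.96). The 5 lowest were Kctd5 (-0.82), Eipr1, Scrn2, Thg1l and Lnx1 (-0.80). Over the 12671 tested genes outside the list the median correlation was -0.19, with 10.7% above 0.5 and 19.9% below -0.5.

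Smooth muscle markers moved with the matrix genes and most urothelial markers moved against them: 11 of 11 smooth muscle genes and 1 of 15 urothelial genes correlated above 0 with the matrix score. Vessel wall markers were mixed, with 3 of 5 pericyte genes and 7 of 10 endothelial genes above 0. The within-group correlation of the matrix score was 0.87 with the smooth muscle score (Spearman 0.87, and Pearson 0.85 without the 2 arrays whose within-group deviation of the matrix score lay farthest from the median deviation) and 0.83 with a pericyte score of 5 genes (Spearman 0.83). It was 0.67 with 3 nerve sheath markers, 0.59 with 7 adipocyte markers and 0.55 with 10 endothelial markers. With the urothelium score it was -0.71 (Spearman -0.73, and Pearson -0.69 without those arrays), and with 9 leukocyte markers it was 0.06. The scrapings with most matrix signal thus also held more muscle signal and less urothelial signal. Within days 3, 28 and 90 the correlation with smooth muscle was 0.86, 0.85 and 0.91, and with urothelium -0.70, -0.61 and -0.80. A further set of 28 stromal genes that are no members, among them S100a4, Gsn and Pcolce, correlated at 0.99. These are descriptions over arrays that share their scraping, and the part of any other cell type was not tested.

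**Figure D2:**
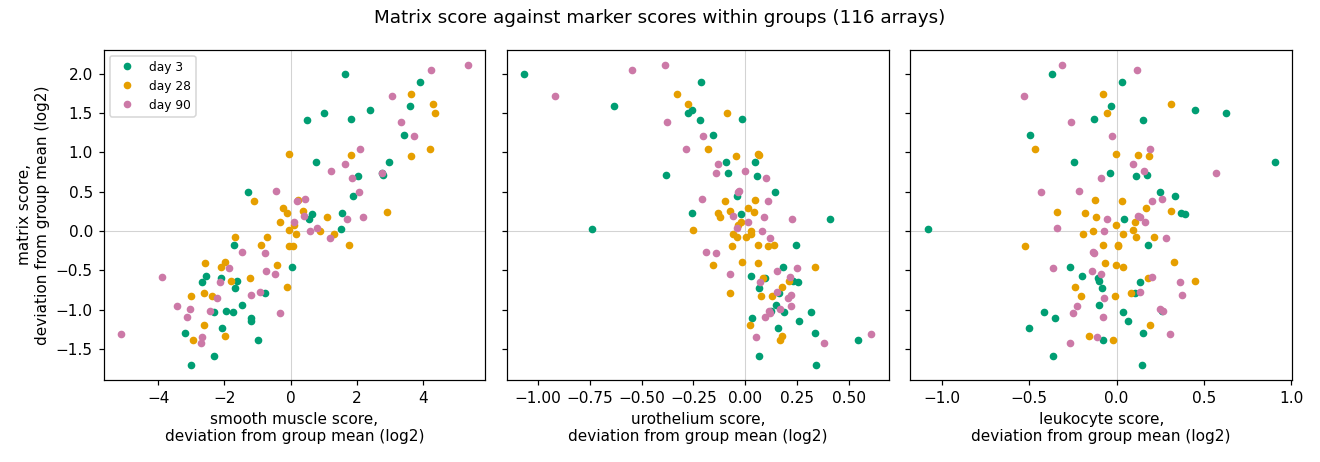
Matrix score of 116 arrays against the smooth muscle, urothelium and leukocyte scores, each as the deviation from its group mean in log2 units, coloured by day. The points rise with smooth muscle (0.87), fall with urothelium (-0.71) and show little slope with leukocyte markers (0.06).

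Matrix genes were highest after 3 days of dosing and lower after 28 and 90 days. Taking the mean over the 4 arms and both sexes, a contrast added after the data had been seen, 40 of 42 members fell between day 3 and day 28, by limma with Benjamini-Hochberg adjustment over all tested genes at an adjusted p under 0.05. The members' median difference was -1.50 log2 units, against 0.05 over all 12713 genes, of which 17.8% fell. Between day 3 and day 90, 33 members fell and 1 rose (median -0.92), against 9.62% of all genes that fell. Both comparisons use the same 38 arrays of day 3. Between day 28 and day 90, 0 members passed the limma test, although 40 of 42 differences lay above 0 (median 0.35) and 9 had an unadjusted p under 0.05 (21.4%, near the 20.2% of all genes). The background there was 4.92% of genes called in either direction, and leaving out the 2 arrays of low correlation gave 2 calls.

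**Figure D3:**
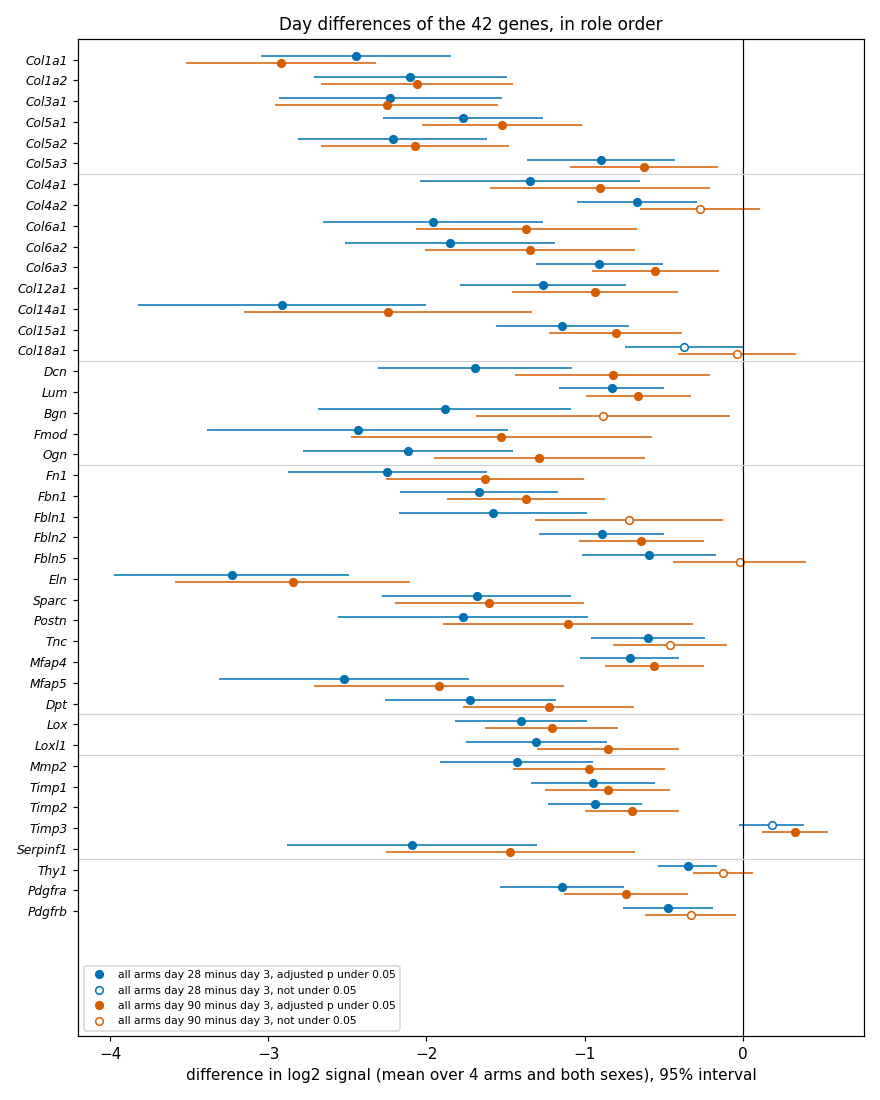
Difference in log2 signal from day 3 to day 28 (blue) and to day 90 (orange) for the 42 genes in role order, as the mean over the 4 arms with 95% intervals, filled where the adjusted p was under 0.05. Nearly all points lie left of 0, Eln farthest at day 28 (-3.23) and Col1a1 farthest at day 90 (-2.92), and Timp3 lies right of 0.

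All 6 fibrillar collagens fell at both later days. Col1a1, which encodes the main chain of collagen I, had a median log2 signal of 14.14 (11.60 to 17.30, n = 38) at day 3, 11.73 (9.31 to 14.72, n = 39) at day 28 and 11.36 (8.41 to 14.14, n = 39) at day 90. The ranges overlapped, but the day 3 median stood near the top of the later ranges. Col1a1 fell by 2.45 log2 units to day 28 (SE 0.30, 5.45-fold, adjusted p = 5.16e-10) and by 2.92 to day 90 (SE 0.30, 7.56-fold, adjusted p = 7.87e-13), the largest fall of the 12713 tested genes at day 90. Col1a2, its partner chain, had medians of 14.64 (11.99 to 17.58), 12.66 (10.34 to 15.35) and 12.87 (9.97 to 15.66) at the 3 days, and fell by 2.10 and 2.06. Col3a1 had medians of 14.11 (10.89 to 17.91), 11.92 (9.41 to 15.11) and 11.57 (9.46 to 15.65), and fell by 2.23 and 2.25. Collagen V chains followed: Col5a2 fell by 2.21 and 2.07, Col5a1 by 1.77 and 1.52, and Col5a3 by 0.90 and 0.62, the last with an adjusted p of 0.0416 at day 90. The other probes of Col1a1 and Col5a2 differed by -1.90 and -2.16 at day 28 and correlated with the first at 0.97 and 0.96.

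Among the basement membrane and other collagens 8 of 9 fell by day 28 and 7 of 9 by day 90. Col14a1, a collagen on the surface of fibrils, showed the widest shift of these, with medians of 10.69 (7.27 to 15.89) at day 3, 7.41 (5.47 to 11.95) at day 28 and 8.69 (4.73 to 12.37) at day 90. It fell by 2.92 (SE 0.46, 7.55-fold, adjusted p = 4.03e-07) and by 2.24. Its other probe differed by -1.16 at day 28 and correlated with the first at 0.76. The collagen VI chains, which form beaded filaments, followed: Col6a1 fell by 1.96 and 1.37. Col6a2 had medians of 12.90 (9.70 to 16.69), 11.07 (8.46 to 14.27) and 11.82 (9.65 to 15.96), and fell by 1.85 and 1.35. Col6a3 fell by 0.91 at day 28, but its other probe differed by 0.10 log2 units and correlated with the first at 0.02. The basement membrane chain Col4a1 fell by 1.34 and 0.90, and Col4a2 fell by 0.67 at day 28 and differed by -0.27 at day 90 (adjusted p = 0.317). The other Col4a1 probe differed by -0.66 at day 28 and correlated with the first at 0.71. Col12a1, another fibril-associated collagen, fell by 1.26 and 0.93, and Col15a1, of the basement membrane zone, fell by 1.14 and 0.80. The other probes of Col12a1 differed by -0.51 and -0.56 at day 28 and correlated with the first at 0.63 and 0.83. Col18a1 did not pass the test at either day, with differences of -0.37 and -0.04 (adjusted p = 0.108 and 0.914).

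The 5 small leucine-rich proteoglycans, which bind collagen fibrils, all fell by day 28, and 4 of them by day 90. Bgn had medians of 13.80 (10.67 to 17.42) at day 3, 11.49 (8.98 to 15.66) at day 28 and 13.17 (10.12 to 16.77) at day 90, so that the day 90 arrays again covered most of the day 3 range. Bgn fell by 1.88 at day 28 (SE 0.40, adjusted p = 1.13e-04), and its difference of -0.88 at day 90 missed the threshold (adjusted p = 0.10). The other Bgn probe differed by -1.08 at day 28 and correlated with the first at 0.94. Fmod fell by 2.43 and 1.53, Ogn (osteoglycin) by 2.12 and 1.29, Dcn (decorin) by 1.69 and 0.82, and Lum (lumican) by 0.83 and 0.66. The day 90 calls of Col4a1, Col5a3, Col6a3 and Dcn were lost in 17, 15, 15 and 12 of 34 alternatives, and each turned in sign in 1.

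Elastin led the glycoproteins and elastic fibre genes, of which 12 of 12 fell by day 28 and 9 of 12 by day 90. Eln had medians of 9.95 (7.46 to 16.36) at day 3, 7.33 (4.55 to 10.20) at day 28 and 7.38 (5.56 to 13.07) at day 90. The later medians lay below the lowest array of day 3, while the upper parts of the ranges overlapped. Eln fell by 3.23 log2 units to day 28 (SE 0.37, 9.39-fold, adjusted p = 5.91e-11), the largest fall of the tested genes there, and by 2.84 to day 90 (7.18-fold, adjusted p = 5.20e-09). Its other probe differed by -0.65 at day 28 and correlated with the first at 0.72. Mfap5, a microfibril protein, fell by 2.52 and 1.92, and Fbn1 (fibrillin, the microfibril scaffold) by 1.67 and 1.37.

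Other matrix glycoproteins fell by day 28 too. Fn1, which encodes fibronectin, fell by 2.25 (SE 0.32, adjusted p = 2.61e-08) and 1.63, although its other probe differed by -0.17 at day 28 and correlated with the first at 0.37. Sparc had medians of 13.41 (11.18 to 18.16), 11.99 (10.18 to 14.88) and 12.01 (10.05 to 15.08), and fell by 1.68 and 1.60. Postn (periostin) fell by 1.77 and 1.11, Dpt (dermatopontin) by 1.72 and 1.23, Fbln2 by 0.89 and 0.64, and Mfap4 by 0.72 and 0.56. Fbln1, Fbln5 and Tnc fell at day 28, by 1.58, 0.59 and 0.60. At day 90 they missed the threshold, with differences of -0.72, -0.02 and -0.46 (adjusted p = 0.0673, 0.960 and 0.0552).

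The enzymes that crosslink collagen and elastin fell with their substrates. Lox, a lysyl oxidase, had medians of 6.45 (5.54 to 11.27), 5.66 (4.65 to 7.39) and 5.83 (4.93 to 8.60), and fell by 1.40 (SE 0.21, adjusted p = 1.42e-07) and 1.21. Loxl1, which acts on elastin, had medians of 6.78 (5.52 to 9.98), 5.5 (5.03 to 7.57) and 6.01 (4.99 to 8.82), and fell by 1.30 and 0.85. The highest arrays of both genes were of day 3.

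Timp3 was the exception among proteases and inhibitors. Mmp2, a gelatinase, had medians of 10.41 (8.0 to 12.58), 9.05 (7.0 to 10.48) and 9.51 (7.30 to 11.54), and fell by 1.43 (SE 0.24, adjusted p = 2.03e-06) and 0.97. The other Mmp2 probe differed by -1.02 at day 28 and correlated with the first at 0.79. Timp2, an inhibitor that also helps to activate the Mmp2 proenzyme, had medians of 15.68 (14.91 to 18.35), 14.87 (14.21 to 16.07) and 15.17 (14.61 to 16.87), and fell by 0.93 and 0.70. Timp1, another inhibitor, fell by 0.95 and 0.85, and Serpinf1 by 2.09 and 1.47. Timp3 had medians of 6.10 (5.39 to 7.96), 6.27 (5.64 to 8.49) and 6.44 (5.93 to 7.70), with wide overlap. It differed by 0.18 at day 28 (adjusted p = 0.158) and rose by 0.33 at day 90 (SE 0.10, adjusted p = 0.0139).

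Fibroblast surface markers shifted less. Pdgfra, a growth factor receptor of fibroblasts, had medians of 8.12 (6.51 to 10.10), 7.21 (5.51 to 8.83) and 7.56 (5.41 to 9.35), and fell by 1.14 (SE 0.20, adjusted p = 2.80e-06) and 0.74. Pdgfrb, its relative on pericytes and fibroblasts, fell by 0.47 at day 28, and Thy1, of low signal, by 0.35. At day 90 their differences of -0.33 and -0.12 missed the threshold (adjusted p = 0.0818 and 0.356).

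Genes that build, trim or anchor matrix but are no members were read against 39.4% of all genes called in this contrast, with 2257 that fell and 2757 that rose. Of 24 matrix processing genes tested, 13 fell and 1 rose between day 3 and day 28 over all arms (median -0.52), among them Pcolce (-1.97), the crosslinking enzyme Loxl2 (-1.22), and Fkbp10 (-0.67) and Serpinh1 (-1.61), both needed for collagen folding. Of 23 further stromal matrix genes tested, 19 fell and 0 rose (median -1.08), including Mfap2 (-1.52), Col16a1 (-1.61) and Dpp4 (-1.90). Of 11 laminin and basement membrane genes, 8 fell and 1 rose (median -0.56), including Nid2 (-1.18), Lama2 (-0.63), Col7a1 (-0.54), the collagen of anchoring fibrils, and Lamc1 (-0.56). Of 15 genes of the TGF-beta axis, which induces matrix genes, 5 fell and 1 rose (median -0.15, 7 above 0), a share called near that of all genes. Those that fell included Tgfb3 (-1.73), Tgfbi (-1.10), Ltbp4 (-1.27) and Ltbp3 (-0.71), and Tgfb1 rose (0.28).

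Markers of other cells shifted between the same days. Of 11 smooth muscle markers 10 fell by day 28 (median -2.05) and 0 passed the limma test at day 90, where 1 had an unadjusted p under 0.05 (median -0.77). The smooth muscle score ranged from 8.41 to 16.11 at day 3, from 7.17 to 15.00 at day 28 and from 7.59 to 16.03 at day 90. Of 15 urothelial markers 10 rose and 1 fell by day 28, and 5 rose by day 90, with scores of 13.21 to 14.86, 14.27 to 15.05 and 13.34 to 15.03 at the 3 days. Of 5 pericyte markers 3 fell by day 28, and of 9 leukocyte markers 6 rose by day 90. Over all genes tested 2757 rose by day 28 and 1810 by day 90. Their part in the fall of the matrix genes was not tested. With the smooth muscle score of each array as a covariate, the day 28 fall was smaller, and 35 of 42 members were called, 34 of them also called without it. Without the covariate 39.4% of all genes were called, and the share with it is not given here. With the covariate, Eln differed by -2.23 in place of -3.23, Col1a1 by -1.62 in place of -2.45, and Col4a1 by -0.19 in place of -1.34.

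Relative to the rest of the stroma, both collagen I chains, elastin and the collagen V chain Col5a2 were lower at both later days, while the collagen V chain Col5a3 differed by 0.15 and 0.08 (adjusted p = 0.570 and 0.810). With the score of the 28 further stromal genes as a covariate, an alternative chosen after the data had been seen, 11 members were called at day 28. Those below 0 were Eln (-1.26), Col1a1 (-0.85), Fn1 (-0.52), Col5a2 (-0.51), Thy1 (-0.41), Col1a2 (-0.40), Lox (-0.39), Fbn1 (-0.38) and Col5a1 (-0.36). Bgn (0.37) and Timp3 (0.45) lay above 0. At day 90, 15 members were called, with Col1a1 at -1.85 (limma's adjusted p = 7.34e-20), Eln at -1.52, Col5a2 at -0.93, Col1a2 at -0.92 and Col3a1 at -0.90. Bgn (0.63), Fbln5 (0.54) and Timp3 (0.51) were called above 0. Shares of all genes called with this covariate are not given here. Without it they were 39.4% at day 28 and 23.9% at day 90, in either direction. Members and covariate both measure stroma on the same arrays, so these values give how a gene moved relative to that score and not its total change.

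**Figure D4:**
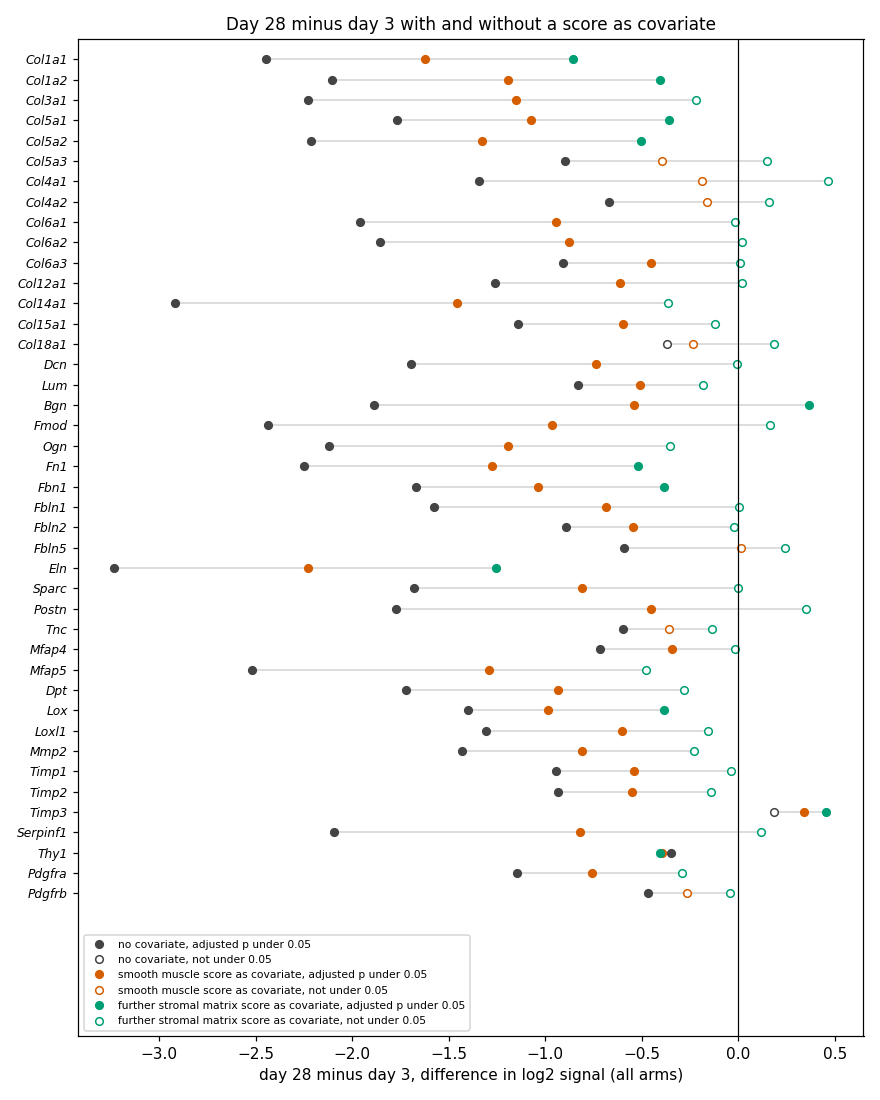
Day 28 minus day 3 in log2 units over all arms for each of the 42 genes, without a covariate (grey), with the smooth muscle score (orange) and with the further stromal matrix score (green) as a covariate, filled where the adjusted p was under 0.05. Eln and Col1a1 stay left of 0 in all 3 fits, at -1.26 and -0.85 in the last, while Bgn crosses to 0.37.

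Vehicle animals alone gave the same direction with fewer calls. Of 42 members 21 fell between day 3 and day 28 (median -1.63, 42 of 42 below 0), against 3.83% of all genes that fell. Between day 3 and day 90, 16 fell (median -1.31), against 2.72%. Between day 28 and day 90 of vehicle 0 members passed the limma test, with 2 at an unadjusted p under 0.05 (4.76%, against 4.51% of all genes) and 0.0315% of genes called. In vehicle, Eln had medians of 11.58 (7.46 to 16.36), 8.21 (4.55 to 10.20) and 7.63 (6.15 to 9.10) at the 3 days (n = 10 each). It fell by 3.55 (SE 0.73, adjusted p = 0.00134 in limma) to day 28 and fell by 3.60 to day 90, in both cases the largest fall of the tested genes. In the same vehicle comparison to day 28, 2 of 5 adipocyte markers fell, Retn (-3.29) and Adipoq (-3.13), and 3 of 15 urothelial markers rose, Upk1a (0.50), Upk2 (0.56) and Upk3a (0.50). All 11 smooth muscle markers lay below 0 (median -1.49) with 0 called. Their part in the vehicle differences was not tested. These vehicle counts rested on few arrays. Without the vehicle male of day 3 with the highest matrix score (replicate 3, urothelium score 13.21), 2 members were called at day 28 and 2 at day 90. Over all arms the counts without that array were 40 and 30.

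Treated arms showed the fall to day 28 with a varying number of calls, and the median difference to day 90 was smallest with rosiglitazone. Between day 3 and day 28, 10 members fell with low-dose pioglitazone (background 4.25%), 29 with high-dose pioglitazone (5.65%) and 2 with rosiglitazone (1.3%). Between day 3 and day 90, the counts were 1 (0.448%), 16 (2.3%) and 1 (0.661%). With rosiglitazone 31 of 42 differences to day 90 lay below 0 (median -0.31), and 4 had an unadjusted p under 0.05 in limma (9.52%, against 11.6% of all genes). From day 28 to day 90 of rosiglitazone, 42 of 42 lay above 0 (median 0.77). Of these, 0 were called and 11 had an unadjusted p under 0.05 (26.2%, against 16.3% of all genes). Differences to day 28 lay below 0 in all 4 arms for 40 of 42 members, and differences to day 90 for 30. Col1a1 was called in all 4 arms at both later days and Eln in all 4 arms at day 28. Col1a1 fell by 2.15 in vehicle and fell by 1.99 with low-dose pioglitazone, while it fell by 3.06 with high-dose pioglitazone and fell by 2.59 with rosiglitazone at day 28 (adjusted p = 0.0166, 0.0322, 0.00106 and 0.00559, limma). The arms share no arrays in these comparisons, and whether an arm's fall differed from that of vehicle is the F test across days given last.

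The matrix scores of every treated arm overlapped those of vehicle. Over both sexes and 3 days, it ranged from 7.61 to 12.22 in vehicle (median 8.81), from 7.43 to 11 with low-dose pioglitazone (median 8.15), from 6.91 to 11.67 with high-dose pioglitazone (median 8.63) and from 6.96 to 11.15 with rosiglitazone (median 8.68). The mean differences from vehicle, balanced over sex and day, were -0.51, -0.08 and -0.33 log2 units, with 95% intervals of -1.05 to 0.04, -0.62 to 0.47 and -0.86 to 0.20 from the spread within groups. In all 18 comparisons of a treated group with vehicle of the same sex and day the scores overlapped, with 15 means below vehicle and 3 above. Comparisons of the same sex and day share their vehicle arrays, so these directions are not independent. The widest gaps were -1.38 for rosiglitazone males at day 3 and 0.97 for high-dose pioglitazone females at day 3. The vehicle group of the first holds the array with the highest score, 12.22, and the treated group of the second holds the array of lowest correlation.

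For the mean effect of each drug, 0 of 42 members were called by limma with low-dose pioglitazone, 0 with high-dose pioglitazone and, likewise, 0 with rosiglitazone. With the replicate number as a fixed block within sex and day, Col1a1 was called with low-dose pioglitazone (-0.98, limma's adjusted p = 0.0484), and with a random block it was not. The fit with the fixed block called 4.48% of all genes with low-dose pioglitazone. In the main fit the shares of all genes called were 2.84%, 6.59% and 5.62%. At an unadjusted p under 0.05 the member counts were 12, 0 and 5, or 28.6%, 0% and 11.9%, against 18.6%, 18.96% and 20.5% of all genes. Of 42 differences 41, 30 and 36 lay below 0, with medians of -0.54, -0.09 and -0.37, against 0.01, -0.01 and 0.00 over all genes. The 3 comparisons share the vehicle arrays, so their directions are not independent. Smooth muscle markers below vehicle numbered 11 of 11 with low-dose pioglitazone (median -0.58), 10 of 11 with rosiglitazone (median -0.45) and 0 of 11 with high-dose pioglitazone (median 0.39). None of them was called by limma, and the counts at an unadjusted p under 0.05 were 0, 0 and 0. Of 9 leukocyte markers 5, 8 and 6 fell with the low dose, the high dose and rosiglitazone. Among the related lists, Col7a1 fell in all 3 comparisons (-0.49, -0.59 and -0.74), Lama5, a laminin chain, with the low dose (-0.52), and Timp4, a protease inhibitor, with the high dose (-0.42).

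Single members stood nearer to the threshold. Col1a1 had medians of 13.04 (10.07 to 17.30, n = 30) in vehicle, 12.05 (10.30 to 15.90, n = 28) with low-dose pioglitazone, 12.32 (8.41 to 16.84, n = 28) with high-dose pioglitazone and 12.34 (9.49 to 16.44, n = 30) with rosiglitazone. The arms overlapped over most of their range, and the differences were -0.88, -0.59 and -0.85 (adjusted p = 0.151, 0.370 and 0.129, limma). Mmp2 had medians of 9.99 (7.98 to 12.04), 9.10 (8.33 to 12.48), 9.95 (7.30 to 12.58) and 9.49 (7.0 to 11.70) in the same order. Its difference of -0.73 with rosiglitazone (95% interval -1.27 to -0.19) had the smallest adjusted p of the members in that arm, 0.0989. Lox differed by -0.63 with low-dose pioglitazone (adjusted p = 0.137), -0.30 with the high dose and -0.38 with rosiglitazone. Once the smooth muscle score entered as covariate, Col1a1 (-0.74) and Col3a1 (-0.75) were called with high-dose pioglitazone (limma's adjusted p = 0.0244 and 0.0197). With rosiglitazone, Col1a1 (-0.69) and Mmp2 (-0.61) were called in that fit (limma's adjusted p = 0.0387 and 0.0330). Shares of all genes called with the covariate are not given here. Without it they were 6.59% with high-dose pioglitazone and 5.62% with rosiglitazone.

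**Figure D5:**
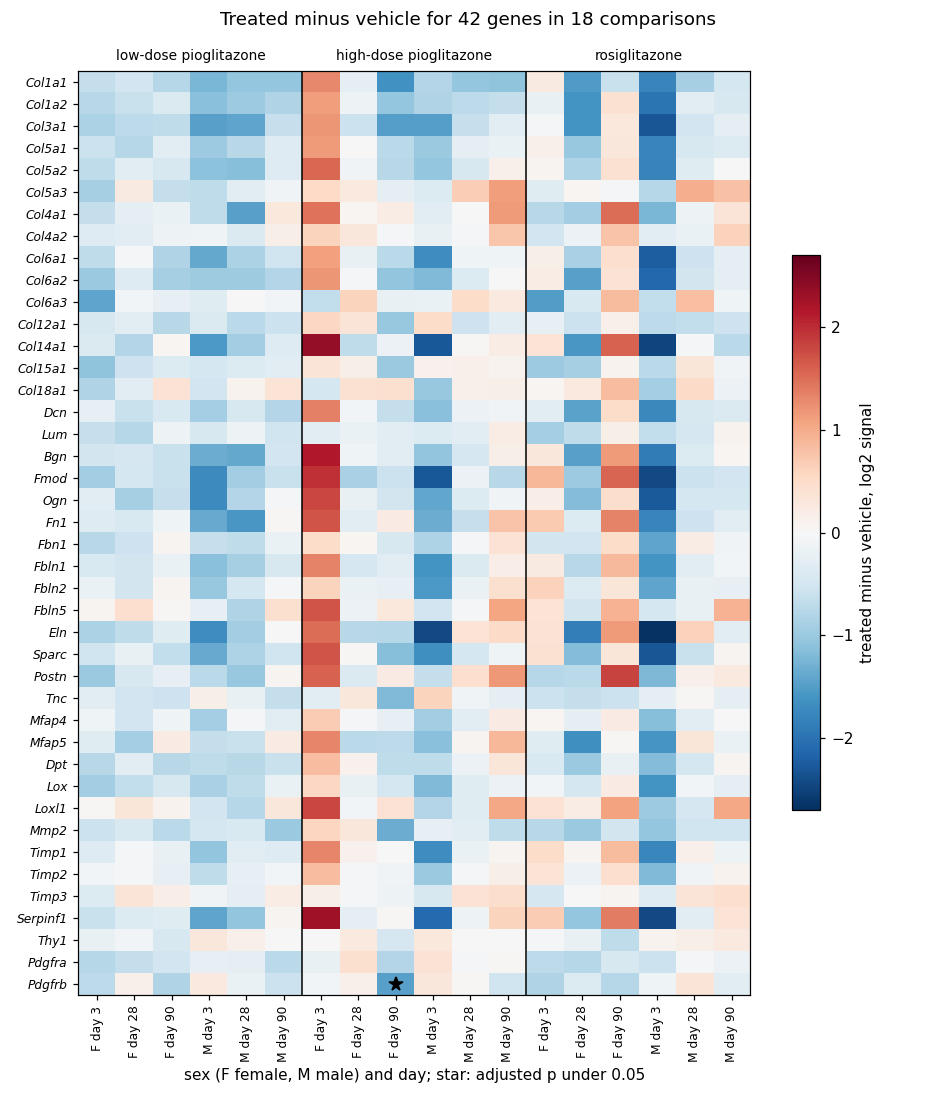
Treated minus vehicle in log2 signal for the 42 genes (rows) in the 18 comparisons within sex and day (columns), blue below and red above vehicle, with a star at an adjusted p under 0.05. Several columns hold 1 colour over most genes, such as rosiglitazone males at day 3 in blue (median -1.42) and high-dose pioglitazone females at day 3 in red, and the star is Pdgfrb.

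Within sex and day, 1 member was called over the 18 comparisons. The shares of all genes called with low-dose pioglitazone at days 3, 28 and 90 were 0%, 0.0393% and 0.0393% in females and 0.0157%, 0.149% and 0.173% in males, with no member called. With high-dose pioglitazone the female shares were 8.46%, 0.0629% and 1.25% and the male shares 0.102%, 0.212% and 0.621%, with 1 member called, in females at day 90. With rosiglitazone the female shares were 0.0708%, 0.362% and 2.45% and the male shares 0.0708%, 1.01% and 0.0315%, with no member called. The highest member count at an unadjusted p under 0.05 was 19 of 42, for rosiglitazone males at day 3 (45.2%, against 11.3% of all genes), where 41 differences were below 0 (median -1.42, against 0.06 over all genes). The vehicle group of that comparison holds the array with the highest matrix score.

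Pdgfrb was the member called. Its log2 signal in vehicle females at day 90 was 8.59, 6.79, 9.01, 6.94 and 8.38, and in high-dose pioglitazone females 6.46, 6.14, 6.06, 7.08 and 6.66. Vehicle values fell into a high set of 3 and a low set of 2, and the groups overlapped, since 1 treated array lay above the lower vehicle arrays. Pdgfrb fell by 1.47 (SE 0.40, 2.76-fold, adjusted p = 0.0380 in limma). Leaving out replicates 1, 3 or 5 of vehicle, or 1, 2, 3 or 5 of high-dose pioglitazone, ended the call, with limma's adjusted p between 0.0570 and 0.221, and including the arrays that failed quality control did so too (adjusted p = 0.677). In females at day 90, arrays with the same replicate number in different arms deviated together (mean correlation 0.28 over all genes, and 0.59 to 0.99 between arms for the matrix score). With the number as a fixed or a random block within sex and day, limma's adjusted p was 0.0498 and 0.0339. With low-dose pioglitazone and rosiglitazone in females at day 90, against the same vehicle arrays, Pdgfrb differed by -0.81 and -0.78 (adjusted p = 0.999 and 0.327).

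Neither the dose of pioglitazone, nor sex in the vehicle arm, nor a change of a drug's effect with sex or day gave a called member. Between high-dose and low-dose pioglitazone 42 of 42 differences lay above 0 (median 0.42), 5 had an unadjusted p under 0.05 (11.9%, against 8.57% of all genes), and 0% of all genes were called. In the same comparison 11 of 11 smooth muscle markers (median 0.95) and 5 of 5 adipocyte markers lay above 0, the latter with 4 at an unadjusted p under 0.05, and 15 of 15 urothelial markers lay below 0. Their part in the difference was not tested. Col5a3 (0.72, 95% interval 0.17 to 1.27) and Col4a1 (0.92, 0.10 to 1.73) were the members of smallest p. The effect of a drug differed between females and males in 0, 0 and 0 members for both doses of pioglitazone (low, then high) and for rosiglitazone (0%, 0% and 0% of genes called), with 0, 1 and 3 at an unadjusted p under 0.05 (0%, 2.38% and 7.14%, against 4.70%, 7.72% and 5.47% of all genes). The F test of each drug's effect across days called 0 members, against 0.00787%, 0.0157% and 0.0393% of genes. Females and males of the vehicle arm differed in 0 of 42 members (0.149% of genes called). Pdgfrb (0.69) and Timp1 (-0.65) had an unadjusted p under 0.05 (4.76% of members, against 9.50% of all genes). Pioglitazone and rosiglitazone were given at different doses, so their values stand side by side and were not compared. A p above the threshold does not show that the arms were alike.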

How the data were processed

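RNA of scraped rat bladder urothelium was hybridised to 1-colour Agilent arrays, per the labels' protocols. The table deposited by the authors holds log2 signals of 30367 probes on 119 arrays. The submitters' processing notes name limma, and how the values were normalised was not given in the sources used here. Array medians lay between 6.40 and 6.63, and the values were used as deposited. Of the probes, 20369 had 1 gene symbol in the platform annotation and 9998 had none. The 3 arrays that the labels mark as failing quality control were left out, leaving 116.

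Each gene was read through its probe of highest mean, and the lowest 25% of genes by mean signal (below 5.26) were left out. limma 3.58.1 in R 4.3.3 fitted 1 mean for each of the 24 groups with a trend in the empirical Bayes step, with 92 residual degrees of freedom. The Benjamini-Hochberg adjustment ran over all tested genes of a contrast, and every adjusted p in the text comes from these fits, at a threshold of 0.05. The fit was tested on simulated data. Correlations are of deviations from group means. The labels do not say that each array came from a separate animal, so p-values measure the spread between these samples, and the number of arrays limits their precision. No scan date or slide was used here. Same-numbered arrays of different arms had a mean correlation of 0.07 within a sex and day, against -0.01 for other numbers, and 78 of 168 pairs were above 0.1, the highest share in females at day 90 (24 of 30). Not every pair was, so the main fit had no block and treated arrays as independent, and fits with one were run as alternatives. For the matrix score, same-numbered arrays correlated between arms at a mean of 0.77 in females at day 90 and 0.40 in males at day 28. In the other sexes and days the mean lay between -0.27 and 0.29. The random block within sex and day used a common correlation of 0.020 for all genes, which may not hold for these members.

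The members and all gene lists were chosen with earlier results of these data known. Any member could be named, with levels given for the brightest member of each role and for some, not all, of the called members. Named besides were, of all other lists, up to 4 called genes by adjusted p, and the 10 highest and 5 lowest correlations with the matrix score. Tgfb1 was named beyond that limit because it rose. Alternatives changed the filter, the normalisation, the probe rule, the arrays used, the variance model, a covariate and the replicates.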

Additional observations from a re-analysis of the deposited data

Results flagged for a closer look

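The matrix score, Col1a1, Eln, Pdgfrb and Thy1 were each checked in the 24 groups, 120 checks in all. In 7 of them 1 array lay further from its group than Dixon's test allows at 95%, and chance alone gives about 1 in 20. Low-dose pioglitazone female day 28 replicate 5, also 1 of the 2 arrays of low correlation, was high in 3 genes, with log2 signals of 14.33 (nearest other array 12.03) for Col1a1, 9.02 (nearest other array 7.18) for Pdgfrb and 5.97 (nearest other array 5.14) for Thy1. Col1a1 was also high in low-dose pioglitazone male day 28 replicate 2, at 12.07 (nearest other array 11.43). Thy1 was low in vehicle female day 90 replicate 1, at 4.92 (nearest other array 5.91), and high in low-dose pioglitazone female day 90 replicate 1, at 5.88 (nearest other array 5.32), and male day 90 replicate 1, at 5.76 (nearest other array 5.26).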

How the results depend on the processing

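Over all arms the counts of called members held within 1.5 times under every alternative but the stromal covariate, with 39 to 40 (main value 40) at day 28 and 29 to 36 (34) at day 90 when replicates were left out in turn. The further stromal score as a covariate, chosen after the data had been seen, left 11 and 15 calls, moved the vehicle matrix score difference from -1.55 to -0.14 at day 28 and from -1.37 to -0.23 at day 90, and gave 1 and 5 vehicle calls. Among members called without it, it turned the sign, in log2 units, of Bgn 0.37, Col12a1 0.017, Col4a1 0.46, Col4a2 0.16, Col5a3 0.15, Col6a2 0.020, Col6a3 0.0078, Fbln1 0.0035, Fbln5 0.24, Fmod 0.16, Postn 0.35 and Serpinf1 0.12 at day 28, and of Col4a1 0.31, Col5a3 0.077, Col6a3 0.060, Dcn 0.31, Fmod 0.21, Postn 0.31 and Serpinf1 0.012 at day 90. Bgn (0.63) and Fbln5 (0.54), not called at day 90 without it, were called above 0 with it. The smooth muscle covariate turned the sign of Fbln5 at day 28 (0.014). A covariate that measures stroma removes shared change by construction.

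Vehicle counts (21 and 16) were less stable: 4 and 2 with the failing arrays included, 2 and 2 without vehicle male day 3 replicate 3, and 1 to 27 and 2 to 17 with replicates left out, lowest without vehicle replicate 5. Vehicle replicates 1 and 3 also moved them by over 1.5 times, to 12 and 3 at day 28 and 9 and 9 at day 90, as did replicate 2 at day 90 (4). The cause was not tested. With a replicate block they were 21 and 14, against 40 and 34 over all arms and 1 over the 18 treatment comparisons. A replicate block within sex and day, added after the data had been seen, gave 40 and 36 calls over all arms and 29 and 19 in vehicle; as a random block it gave 40, 33, 21 and 16. The fixed block gave 3 calls over the 18 comparisons, Fbln5 (1.78) and Loxl1 (2.09) with high-dose pioglitazone in females at day 3, beside Pdgfrb. Of all genes it called 9.30% in that day 3 comparison and 1.03% in the comparison of Pdgfrb. With low-dose pioglitazone it gave 1 call (Col1a1 -0.98), against 4.48% of all genes. Between days 28 and 90 it gave 3 (Dcn, Bgn and Fbln1, all higher at day 90), against 5.99% of all genes. The random block gave 1, 0 and 0 in the same order.

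Counts at or near 0 moved as follows. Over the 18 comparisons (1) the stromal covariate gave 6 and left-out replicates 0 to 4. Between days 28 and 90 over all arms (0), leaving out the arrays of low correlation gave 2, the smooth muscle covariate 2, the stromal covariate 5 and left-out replicates 0 to 1. High-dose pioglitazone (0) had 2 and 5 calls with the smooth muscle and stromal covariates, and rosiglitazone (0) had 2, 1 and, with replicates left out, 0 to 2. The cause was not tested, and the shares of all genes called in the fits with a covariate are not given here.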
